A study of Rattus norvegicus with 6 samples.

Results

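The DNAJ co-chaperones of rat myocardium were followed after ischemia and reperfusion. They were taken as every gene whose symbol reads Dnaja, Dnajb or Dnajc, then a number and at most 1 further letter. This rule found 45 genes of the 28293 in the table, of which 4 belong to class A, 13 to class B and 28 to class C. RNA was compared between myocardial tissue of 3 sham rats and of 3 rats with myocardial ischemia-reperfusion injury (MI/RI, labelled I/R). All 6 rats were male and wild type (WT), and neither strain nor age was given in the labels. For MI/RI a branch of the left coronary artery, the left anterior descending (LAD), was tied for 30 min and the heart was taken 6 h after release, and the titles of the sham libraries carry these times too. In its treatment experiment the study's methods describe a PBS injection for the sham and reperfusion groups, which the labels of these libraries do not mention. The labels do not say which region of the heart was taken, so infarcted and spared muscle cannot be told apart.

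J proteins are the partners that bring HSP70 chaperones to their work. A short J domain stimulates the ATPase of an HSP70, which then closes on a client protein, and a nucleotide exchange factor later opens it again. Class A and class B members also bind unfolded clients themselves through domains near the carboxyl end, and a zinc finger region sets class A apart from class B. Class C members share little beyond the J domain, and many of them tie an HSP70 to a single task such as protein import into mitochondria, vesicle uncoating or splicing. In cardiac muscle these machines fold and clear the proteins of the sarcomere and import most of the mitochondrial proteome.

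Expression is given as deposited in FPKM, a count of fragments corrected for how long the gene is and how large the library is, so that levels of different genes can be compared per length. The summed FPKM of a library was 894902 to 928941 in the sham group and 731063 to 825490 in the MI/RI group. Absolute depth is unknown, and the steps between low values gave a depth relative to sham rat 1 of 0.873 to 1.18. The 13 mRNAs encoded by mitochondrial DNA took 80.1% to 86.2% of a library in the sham group and 61.8% to 71.5% in the MI/RI group, so each comparison was repeated with libraries rescaled over all other genes (the non-mitochondrial scale). Cardiomyocyte markers (Myh6, Tnnt2, Tnni3, Actc1, Myl2, Myl3 and Mb) summed to 3642 to 11998 FPKM in the sham group, with sham rat 1 the highest, and to 24836 to 35915 FPKM in the MI/RI group. All 7 rose, with a median log2 fold change of 2.55, and on the non-mitochondrial scale the median was 1.77. Of the other markers, 1 of 6 fibroblast genes and 0 of 6 endothelial genes rose, while 3 of 6 tested neutrophil and monocyte genes rose and 1 fell, and the 1 tested lymphocyte gene, Cd3g, fell by 1.25 on the log2 scale (adjusted p = 0.014, limma). Of all genes tested 25.5% were called higher and 7.36% lower. Rescaling to the non-mitochondrial scale gave 2 fibroblast and 3 endothelial genes called lower, against 26.1% of all genes. After quantile normalization the counts were 2 and 5, against 14.2%. The part of cell composition in the values below was not tested, and in bulk tissue fewer cells of a type and less RNA per cell cannot be told apart.

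On the deposited scale the DNAJ genes were on the whole higher in the MI/RI rats and none was called lower. After centring on the cardiomyocyte markers all 39 tested lay below 0, where only 1.22% of all genes tested lay above it. Their summed expression was 182, 174 and 149 FPKM in sham rats 1 to 3 and 430, 306 and 286 FPKM in MI/RI rats 1 to 3, with no overlap between the groups. Of the 45 genes, 39 reached a mean of 0.5 FPKM over the 6 rats and were tested with limma on log2(FPKM + 0.1), a scale that understates the change of low genes. In this test 20 rose and 0 fell at an adjusted p under 0.05, where 25.5% of the 10942 genes tested were called higher and 7.36% lower. No member was lower at an unadjusted p under 0.05 either, and 23 were higher at that level. The median log2 fold change was 0.78 for the DNAJ genes and 0.29 for all genes tested. Every MI/RI value lay above every sham value in 27 of the 39 genes, where this held for 37.2% of all genes tested, and in 0 of the 39 did every MI/RI value lie below, where 13% of all genes did. These counts take in 4 genes whose sham mean was under 0.5 FPKM and which were tested through their MI/RI values (Dnajb3, Dnajc16, Dnajc22 and Dnajc28). Among the other 35 genes 18 rose, against 24.8% of the 10537 genes with a sham mean of at least 0.5 FPKM, and 25 had every MI/RI value above every sham value, against 36.2%.

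How many DNAJ genes passed depended on the scale. On the non-mitochondrial scale 5 rose (Dnaja3, Dnaja4, Dnajc12, Dnajc15 and Dnajc19) and 0 fell, against 7.25% of all genes called higher and 26.1% called lower. The median of the DNAJ genes was then 0.00 and that of all genes −0.46. Higher calls made up 77.6% of all calls on the deposited scale and 21.7% on this one, so the values below are relative to the scale named with them. Quantile normalization gave 12 higher DNAJ genes, against 13.2% of all genes higher and 14.2% lower. Dnaja3, Dnaja4, Dnajc12 and Dnajc19 passed on the deposited scale and on all 4 other scales, which were the non-mitochondrial scale, quantile normalization, TPM (22 higher DNAJ genes, against 31.5% of all genes higher and 4.61% lower) and median centring (16, against 18.5% and 14.2%). After centring on the 7 cardiomyocyte markers, which lowers each gene by 2.54 on the log2 scale, 0 DNAJ genes were called higher and 24 lower, against 0.228% and 84.2% of all genes. MI/RI rat 1 was the highest of the 3 MI/RI rats in 36 of the 39 genes. Without it 12 DNAJ genes were called higher (18.9% of all genes), without sham rat 2 the count was 13 (17.5%) and without sham rat 3 it was 8 (14%), so that calls fell among all genes too. Dnaja3, Dnaja4, Dnajb2, Dnajb5, Dnajc12, Dnajc15, Dnajc19 and Dnajc30 were called whichever rat was left out. A two-sided exact permutation test of 1 gene cannot go below p = 0.1 with 3 rats against 3, and each of the 20 genes called gave that value.

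**Figure D1:**
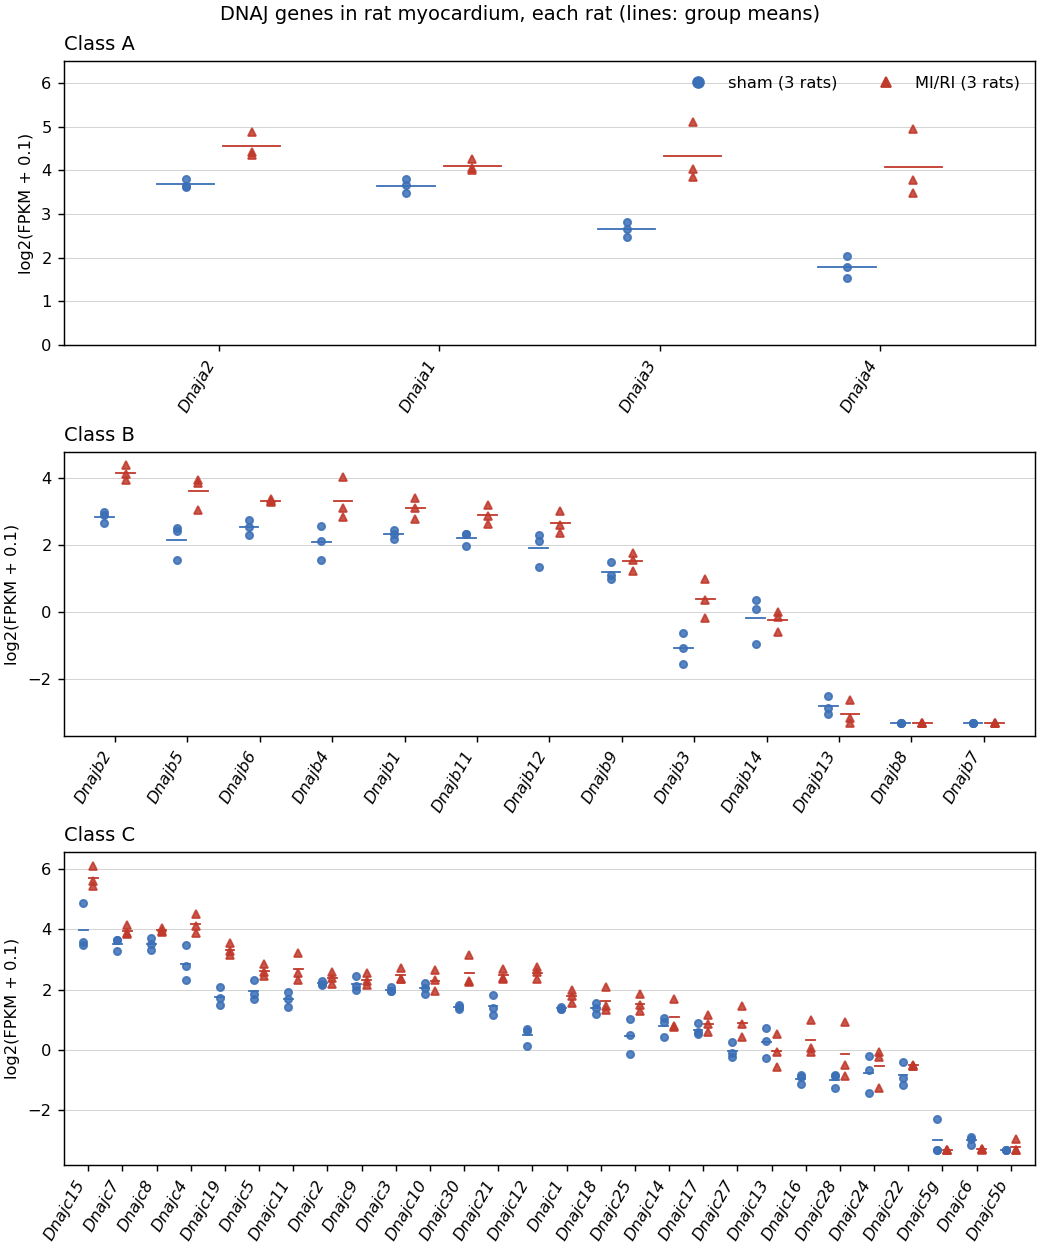
Level of each DNAJ gene in each rat as log2(FPKM + 0.1), by class, with sham rats as circles, MI/RI rats as triangles and the group means as lines. Every MI/RI value lies above every sham value in all 4 class A genes, in 8 of the 10 tested class B genes and in 15 of the 25 tested class C genes. This holds for 37.2% of all genes tested. On the non-mitochondrial scale (not drawn) 9 of the 39 tested DNAJ genes lie above in this way and 5 below, against 11.4% and 36.9% of all genes. The 6 genes under the filter lie at the bottom right of the lower panels.

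On the deposited scale class A had the highest share of calls and class C the lowest, whereas on the non-mitochondrial scale and after quantile normalization class B had the lowest. In class A 3 of 4 genes rose (median log2 fold change 1.27, range 0.46 to 2.28), in class B 7 of 10 tested (0.78, −0.06 to 1.47), and in class C 10 of 25 tested (0.48, −0.29 to 2.07), beside the 25.5% of all genes. Without the genes whose sham mean was under the filter the counts were 6 of 9 in class B and 9 of 22 in class C. The non-mitochondrial scale left 2 class A, 0 class B and 3 class C genes past the threshold, against 7.25% of all genes called higher. After quantile normalization the counts were 2, 2 and 8, against 13.2%. Leaving out sham rat 3 left 2 calls in class B and 4 in class C (14% of all genes higher), and leaving out MI/RI rat 1 left 3 and 6 (18.9%). Class B also had 3 calls without sham rat 2 (17.5% of all genes) and 4 without sham rat 1 (23.4%) or MI/RI rat 2 (20.7%). The medians kept this order on the non-mitochondrial scale, at 0.49, 0.01 and −0.29, where that of class C was below 0. Quantile normalization placed them at 0.58, 0.33 and 0.27. A filter at a mean of 5 FPKM in place of 0.5 changed the order, with medians of 1.27, 0.78 and 1.31. The genes of a class are no replicates of it, and the difference between classes was not tested.

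**Figure D2:**
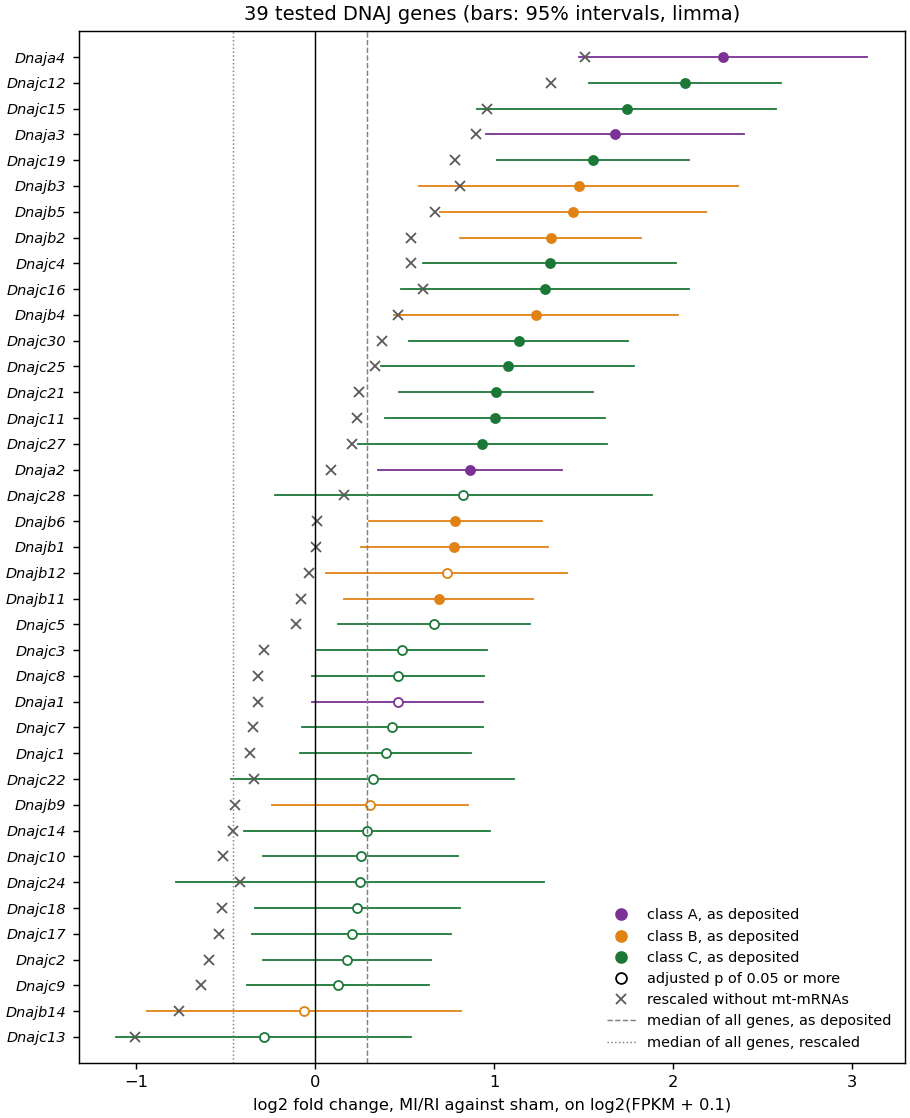
Log2 fold change of the 39 tested DNAJ genes between MI/RI and sham rats, with circles and limma 95% confidence intervals for the deposited FPKM (colour for class, open where not called), crosses for the non-mitochondrial scale and vertical lines for the medians of all genes on both scales. On the deposited scale 37 of 39 estimates lie above 0 (65.3% of all genes tested), whereas on the non-mitochondrial scale 20 do (28.2% of all genes).

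The cytosolic co-chaperones of HSP70 are the general folding helpers of the family, and 7 of 8 rose (median log2 fold change 1.05), against 25.5% of all genes. With the non-mitochondrial scale 1 of 8 passed (median 0.27), against 7.25% of all genes, and after quantile normalization 2 of 8 did, against 13.2%. Dnaja4, a class A member closely related to Dnaja1, had the largest increase of all DNAJ genes. Its level was 3.33, 4.03 and 2.82 FPKM in sham rats 1 to 3 and 30.8, 11 and 13.6 FPKM in MI/RI rats 1 to 3. The groups were far apart, and MI/RI rat 1 stood above both other MI/RI rats. The log2 fold change was 2.28 (SE 0.36, adjusted p = 0.0035, limma), or 4.85-fold, and on the non-mitochondrial scale it was 1.51 (adjusted p = 0.0044). By mean level Dnaja4 moved from rank 20 in the sham group to rank 4 in the MI/RI group among the DNAJ genes.

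Dnaja1 and Dnaja2, the abundant constitutive class A partners of Hspa8, moved less. Dnaja2 was 13.9, 12.4 and 12.1 FPKM in sham rats 1 to 3 and 29.2, 21.4 and 20.4 FPKM in MI/RI rats 1 to 3, a log2 fold change of 0.87 (SE 0.23, adjusted p = 0.019, limma). The groups did not overlap, but the call was lost without sham rat 2 (adjusted p = 0.061) and without sham rat 3 (adjusted p = 0.069). The value was 0.09 on the non-mitochondrial scale (adjusted p = 0.80) and 0.10 after quantile normalization (adjusted p = 0.67). Dnaja1 was 11.1, 13.8 and 12.6 FPKM in the sham rats and 19.0, 16.5 and 16.1 FPKM in the MI/RI rats. All 3 MI/RI rats were above all 3 sham rats here too, yet the log2 fold change of 0.46 (95% confidence interval −0.02 to 0.94, adjusted p = 0.13, limma) did not pass, and it turned to −0.32 on the non-mitochondrial scale and to −0.28 after quantile normalization. The ratio of Dnaja4 to Dnaja1 was 0.301, 0.292 and 0.225 in sham rats 1 to 3 and 1.62, 0.671 and 0.849 in MI/RI rats 1 to 3, and this ratio does not depend on the scaling of a library.

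The cytosolic class B members all rose on the deposited scale, and none of them passed on the non-mitochondrial scale. Dnajb2, which also carries ubiquitin-interacting motifs, was 7.79, 7.28 and 6.14 FPKM in sham rats 1 to 3 and 20.9, 17.4 and 15.1 FPKM in MI/RI rats 1 to 3 (log2 fold change 1.32, SE 0.23, adjusted p = 0.0043, limma). Dnajb5 was 5.64, 5.22 and 2.83 FPKM in the sham rats and 14.3, 15.1 and 8.11 FPKM in the MI/RI rats (1.44, SE 0.33, adjusted p = 0.011). In both genes the groups were apart, and in Dnajb5 the rats numbered 3 were the lowest of each group. Dnajb4, known from skeletal and cardiac muscle, was 2.86, 5.88 and 4.25 FPKM in the sham rats and 16.1, 8.51 and 7.10 FPKM in the MI/RI rats (1.24, SE 0.36, adjusted p = 0.025). Its groups were apart by a small margin, and the call was lost without sham rat 1 (adjusted p = 0.075), sham rat 3 (0.064) or MI/RI rat 1 (0.070).

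Dnajb1 is the classical heat-inducible HSP40, and its change was among the smaller ones that passed. Its level was 4.47, 4.95 and 5.34 FPKM in the sham rats and 10.5, 8.56 and 6.77 FPKM in the MI/RI rats. The log2 fold change was 0.78 (SE 0.23, adjusted p = 0.030, limma) with no overlap between the groups. On the non-mitochondrial scale it was 0.00, and the call was lost without any 1 rat other than MI/RI rat 3 (highest adjusted p = 0.080). Dnajb6, a suppressor of protein aggregation in muscle, went from a mean of 5.76 ± 0.91 FPKM (SD, n = 3) to 9.90 ± 0.30 FPKM (SD, n = 3), a log2 fold change of 0.78 (adjusted p = 0.021) that was lost without sham rat 2 or 3 or MI/RI rat 2 or 3 (highest adjusted p = 0.095). Of the heat shock factors that drive chaperone genes under stress, 0 of 3 tested passed on the deposited scale (limma, 0 at the adjusted threshold). Their log2 fold changes were 0.23 for Hsf1, −0.34 for Hsf2 and −0.29 for Hsf4, all with adjusted p of at least 0.419. On the non-mitochondrial scale Hsf2 (−1.09, adjusted p = 0.038) and Hsf4 (−1.01, adjusted p = 0.038) were called lower, against 26.1% of all genes. Hsf1 was not called there (−0.54, adjusted p = 0.17).

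The best known binding site of heat shock factors is the heat shock element. Among the DNAJ genes with a matched promoter, Dnaja1 was the gene that carried it near its start. The element was searched as GAANNTTCNNGAA on both strands of promoters from 250 bases before to 50 bases after the start of a gene (RefSeq, rat build GRCr8). Promoters were matched by symbol for 35 of the 45 DNAJ genes, and 1 of the 35 (2.86%) held the element, against 0.798% of 33469 promoters. The stretches below show it in capitals for Dnaja1 and, for comparison, for the HSP70 gene Hspa8, which holds 2 copies. All are read on the plus strand, the sense strand of these genes. They lie at chr5:60638405-60638434 for Dnaja1, and at chr8:50080293-50080322 and chr8:50080451-50080480 for Hspa8.
Dnaja1: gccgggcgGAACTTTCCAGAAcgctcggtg
Hspa8, far copy: gcgagcgtGAAAGTTCCAGAAcgctgcggt
Hspa8, near copy: cggaacccTTCTGGAAGGTTCtaagacagg
In Dnaja1 the element runs from base 10 to base 22 after the start, and in Hspa8 the copies begin 213 and 55 bases before it. The search returned no element for Dnaja4, with the largest increase, or for Dnajb1. Whether a promoter was matched for Dnaja4 or Dnajb1 is not given here, so the element may not have been looked for in them. The search says nothing of sites elsewhere or of genes without a matched promoter.

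The mitochondrial J proteins were the other group in which most members rose, 6 of 7, against 25.5% of all genes (median log2 fold change 1.31). On the non-mitochondrial scale the median was 0.53 and 3 passed, against 7.25% of all genes. Dnaja3 works with the mitochondrial HSP70 Hspa9 in the matrix. Its level was 6.91, 6.26 and 5.49 FPKM in sham rats 1 to 3 and 34.1, 16.3 and 14.4 FPKM in MI/RI rats 1 to 3 (log2 fold change 1.68, SE 0.32, adjusted p = 0.0059, limma). The groups were far apart, with MI/RI rat 1 again the highest, and the non-mitochondrial scale gave 0.90 (adjusted p = 0.028). Against Hspa9 the level of Dnaja3 was 0.343, 0.367 and 0.377 in the sham rats and 0.447, 0.369 and 0.400 in the MI/RI rats, ranges that overlap.

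Dnajc15 and Dnajc19 are membrane-bound relatives at the import channel of the inner membrane, where they act on Hspa9, and loss of Dnajc19 causes a cardiomyopathy in people. Dnajc15 was the most abundant DNAJ mRNA, at 29.0, 11 and 11.7 FPKM in sham rats 1 to 3 and 67.8, 48.6 and 42.8 FPKM in MI/RI rats 1 to 3 (log2 fold change 1.74, SE 0.37, adjusted p = 0.0086, limma). The groups did not overlap, and sham rat 1, whose cardiomyocyte markers were also the highest of the sham rats, stood well above the other sham rats. The call held on the non-mitochondrial scale (0.96, adjusted p = 0.020) and missed the threshold after quantile normalization (adjusted p = 0.077). Dnajc19 was 4.19, 3.21 and 2.68 FPKM in the sham rats and 11.4, 9.66 and 8.74 FPKM in the MI/RI rats (1.55, SE 0.24, adjusted p = 0.0034). Its groups were well apart, and the non-mitochondrial scale gave 0.78 (adjusted p = 0.030).

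The remaining mitochondrial members changed less evenly. Dnajc30, a partner of the respiratory chain, was 2.70, 2.57 and 2.48 FPKM in the sham rats and 8.75, 4.81 and 4.62 FPKM in the MI/RI rats (log2 fold change 1.14, SE 0.27, adjusted p = 0.013, limma), with the sham rats close together. Dnajc4 was 11, 6.73 and 4.84 FPKM in the sham rats and 22.5, 14.7 and 17 FPKM in the MI/RI rats (1.31, SE 0.32, adjusted p = 0.013). Its groups were apart, with sham rat 1 high, and the call was lost without sham rat 2 (adjusted p = 0.055) or sham rat 3 (0.051). Dnajc11, found at the outer membrane with the complex that shapes the cristae, rose by 1.0 (adjusted p = 0.021), lost without sham rat 3 or MI/RI rat 1 (highest adjusted p = 0.082). Dnajc28 was 0.452, 0.463 and 0.321 FPKM in the sham rats and 1.78, 0.607 and 0.452 FPKM in the MI/RI rats, and with overlapping groups it did not pass (0.83, adjusted p = 0.20).

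Several of the 7 listed J proteins of the endoplasmic reticulum serve the HSP70 Hspa5 in folding and in the disposal of secretory proteins. The list may not hold every member of this compartment. Of these 7 genes 1 rose, against 25.5% of all genes. Their median log2 fold change was 0.39, beside 0.29 for all genes, and −0.37 on the non-mitochondrial scale, beside −0.46. Hspa5 itself was 25.4, 27.1 and 26.5 FPKM in sham rats 1 to 3 and 88.0, 69.9 and 62.8 FPKM in MI/RI rats 1 to 3 (1.46, SE 0.23, adjusted p = 0.0034, limma). Dnajb11, a luminal partner that binds unfolded chains, was 4.95, 4.89 and 3.81 FPKM in the sham rats and 9.05, 6.12 and 7.17 FPKM in the MI/RI rats (0.69, SE 0.24, adjusted p = 0.048). The groups were apart, but the call of Dnajb11 was lost whichever rat was left out (highest adjusted p = 0.17), and the value turned to −0.08 on the non-mitochondrial scale (adjusted p = 0.82). Dnajc3, an inhibitor of stress kinases that also binds Hspa5, was 3.73, 4.10 and 3.75 FPKM in the sham rats and 6.40, 5.0 and 5.0 FPKM in the MI/RI rats, and despite non-overlapping groups it did not pass (0.48, 95% confidence interval 0.01 to 0.96, adjusted p = 0.11). Its level relative to Hspa5 was 0.147, 0.151 and 0.142 in the sham rats and 0.0727, 0.0715 and 0.0795 in the MI/RI rats, which do not overlap.

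The other listed members of this compartment were not called in the test above. Dnajb9, a repressor of the stress sensor IRE1, went from a mean of 2.23 ± 0.44 FPKM (SD, n = 3) to 2.78 ± 0.56 FPKM (SD, n = 3), a log2 fold change of 0.31 (adjusted p = 0.36, limma). Dnajc10, a disulfide reductase, gave 0.25 (adjusted p = 0.45) and Dnajc1 gave 0.39 (adjusted p = 0.18). Dnajb12, a membrane protein of the disposal route, was 4.84, 4.25 and 2.42 FPKM in the sham rats and 7.98, 5.98 and 4.98 FPKM in the MI/RI rats, with no overlap but a small gap. Its log2 fold change of 0.74 missed the threshold (adjusted p = 0.087) and passed it with the replicate number as a block (adjusted p = 0.030), a fit in which 21 DNAJ genes rose and 0 fell, against 28.2% and 8.18% of all genes. Dnajb14, its membrane relative, was 0.410, 1.17 and 0.952 FPKM in the sham rats and 0.564, 0.893 and 0.807 FPKM in the MI/RI rats, where the sham range enclosed the MI/RI range (−0.06, adjusted p = 0.92).

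The endoplasmic reticulum stress element (CCAAT, 9 bases of any kind, CCACG) was searched on both strands of the same promoters, and 1 of the 35 DNAJ promoters (2.86%) held it, that of Dnajc3, against 0.0657% of all. It is shown in capitals beside that of Hspa5, its HSP70 partner, on the plus strand at chr15:102432529-102432558 and chr3:38452968-38452997 (RefSeq, GRCr8).
Dnajc3: caaagCCAATCAGCGCCAACCACGacccag
Hspa5: gttcaCCAATCGGAGGCCTCCACGacgggg
The element begins 133 bases before the start of Dnajc3 and 43 bases before that of Hspa5. The promoters of these 2 genes share the fixed letters of the element, and the 9 bases between them differ. The log2 fold changes of the 2 genes were 0.48 and 1.46, as given above.

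Among J proteins of the nucleus and the ribosome 1 of 5 was called, against 25.5% of all genes. Their median log2 fold change was 0.20, beside 0.29 for all genes, and −0.54 on the non-mitochondrial scale, beside −0.46. The member that rose was Dnajc21, which helps to mature the large ribosomal subunit, at 2.53, 3.46 and 2.15 FPKM in sham rats 1 to 3 and 6.34, 5.01 and 5.13 FPKM in MI/RI rats 1 to 3 (1.01, SE 0.24, adjusted p = 0.013, limma). Its groups were apart, and the call was lost without sham rat 3 (adjusted p = 0.059). Dnajc8, a splicing factor, was 11.2, 12.9 and 9.73 FPKM in the sham rats and 15.1, 15 and 16.3 FPKM in the MI/RI rats. Although its groups did not overlap, it did not pass (0.46, 95% confidence interval −0.02 to 0.94, adjusted p = 0.13), and the value was −0.32 on the non-mitochondrial scale and −0.24 after quantile normalization.

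The 3 remaining members of that group had overlapping rats. Dnajc2, which sits on the ribosome at the exit of the nascent chain, was 4.45, 4.73 and 4.39 FPKM in the sham rats and 5.82, 5.14 and 4.49 FPKM in the MI/RI rats (log2 fold change 0.18, adjusted p = 0.54, limma). Dnajc9, a histone chaperone, was 3.90, 5.40 and 4.22 FPKM in the sham rats and 5.69, 4.35 and 4.72 FPKM in the MI/RI rats (0.13, adjusted p = 0.69). Dnajc17, tied to splicing and transcription, was 1.76, 1.34 and 1.40 FPKM in the sham rats and 2.13, 1.72 and 1.42 FPKM in the MI/RI rats (0.20, adjusted p = 0.56). On the non-mitochondrial scale these 3 genes had every MI/RI rat below every sham rat, as Dnajc1 and Dnajc18 also did, which held for 36.9% of all genes tested on that scale. Their values there were −0.59, −0.64 and −0.54 for Dnajc2, Dnajc9 and Dnajc17, and none passed (lowest adjusted p = 0.10).

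Of the vesicle proteins none passed (limma, 0 of 2 tested). Dnajc13, an endosomal protein, had the lowest log2 fold change of the family, at 0.732, 1.56 and 1.12 FPKM in sham rats 1 to 3 and 1.34, 0.576 and 0.849 FPKM in MI/RI rats 1 to 3 (−0.29, 95% confidence interval −1.11 to 0.54, adjusted p = 0.58). The rats of the groups were mixed, and the interval spans changes in both directions. Dnajc5, the cysteine string protein of secretory vesicles, was 3.15, 4.89 and 3.54 FPKM in the sham rats and 7.05, 5.89 and 5.40 FPKM in the MI/RI rats, apart between the groups but not called (0.66, adjusted p = 0.059). Dnajc6, the neuronal auxilin that uncoats clathrin vesicles, was at most 0.035 FPKM in any rat and was not tested.

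The members known from the germ line were mostly at or near 0. Dnajb7 and Dnajb8 were listed at 0 in all 6 rats, and Dnajb13, Dnajc5b and Dnajc5g did not exceed 0.103 FPKM in any. Dnajb3 was the exception, at 0.552, 0.243 and 0.369 FPKM in sham rats 1 to 3 and 1.90, 1.18 and 0.776 FPKM in MI/RI rats 1 to 3 (log2 fold change 1.47, SE 0.40, adjusted p = 0.020, limma). The groups were apart, but the call was lost without sham rat 2 (adjusted p = 0.066), sham rat 3 (0.059) or MI/RI rat 1 (0.071). Its sham mean lay under the filter of 0.5 FPKM, so it was tested through its MI/RI values, and such a gene could enter only if it was higher. Reads shared with related copies could not be separated, since the counting of shared reads is not given in the sources used here.

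Among the 9 members outside these groups 4 rose, against 25.5% of all genes. The lists give these 9 no place in the cell, and some may belong to the endoplasmic reticulum. Dnajc12, a partner of the hydroxylases of aromatic amino acids, was 1.52, 1.44 and 1.0 FPKM in sham rats 1 to 3 and 6.61, 4.98 and 5.86 FPKM in MI/RI rats 1 to 3. The groups were far apart and the MI/RI rats close together, and the log2 fold change of 2.07 (SE 0.24, adjusted p = 0.0013, limma) had the lowest adjusted p of the family. On the non-mitochondrial scale it was 1.32 (adjusted p = 0.0043). Dnajc16 was 0.359, 0.460 and 0.434 FPKM in the sham rats and 1.90, 0.845 and 0.953 FPKM in the MI/RI rats (1.28, SE 0.36, adjusted p = 0.023). Its groups were apart, but the call was lost without sham rat 1 (adjusted p = 0.052), sham rat 2 (0.051), sham rat 3 (0.063) or MI/RI rat 1 (0.072). Dnajc25 rose by 1.08 (adjusted p = 0.027), lost without sham rat 1 or 3 or MI/RI rat 1 or 2 (highest adjusted p = 0.10). Dnajc27, which joins a Rab-like domain to its J domain, rose by 0.93 (adjusted p = 0.044), lost without any 1 rat other than MI/RI rat 3 (highest adjusted p = 0.14).

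Of the 5 that did not pass, Dnajc7 was by far the most abundant. It holds HSP70 and HSP90 together through its TPR repeats, and was 9.51, 12.4 and 12.4 FPKM in the sham rats and 17.6, 14.5 and 14.2 FPKM in the MI/RI rats. Every MI/RI rat was above every sham rat, but the log2 fold change of 0.43 (95% confidence interval −0.07 to 0.94) had an adjusted p of 0.17 (limma) and turned to −0.35 on the non-mitochondrial scale and −0.28 after quantile normalization. Dnajc18 was 2.86, 2.16 and 2.54 FPKM in the sham rats and 4.11, 2.62 and 2.43 FPKM in the MI/RI rats, with overlap (0.24, adjusted p = 0.51). Dnajc14, Dnajc22 and Dnajc24, the last a factor of diphthamide synthesis, overlapped too, with log2 fold changes of 0.25 to 0.32 and adjusted p of at least 0.49.

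The make-up of the summed DNAJ expression differed between the groups, and these shares do not depend on the scaling of a library. Mitochondrial J proteins took 31.6%, 19.5% and 20.2% of it in sham rats 1 to 3 and 36.1%, 32.8% and 32.5% in MI/RI rats 1 to 3. The share of the 7 listed endoplasmic reticulum proteins was 12.1%, 13.5% and 13.5% in the sham rats and 8.68%, 9.45% and 9.39% in the MI/RI rats. That of the nuclear and ribosomal ones was 13.1%, 16.0% and 14.7% against 8.15%, 10.2% and 11.2%. In all 3 of these groups the sham and MI/RI rats did not overlap. The cytosolic co-chaperones overlapped, at a mean of 33.0% ± 2.02 (SD, n = 3) and 34.8% ± 0.77 (SD, n = 3). Within them the share of Dnaja4 went from a mean of 2.01% to 5.18% and that of Dnaja1 from 7.48% to 5.14%, both without overlap.

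One gene weighed on these shares. Dnajc15 alone made up 16.0%, 6.31% and 7.84% of the DNAJ sum in sham rats 1 to 3 and 15.7%, 15.9% and 15% in MI/RI rats 1 to 3, so that sham rat 1 stood with the MI/RI rats. Without Dnajc15 the mitochondrial share was 18.6%, 14.1% and 13.4% in the sham rats and 24.2%, 20.1% and 20.6% in the MI/RI rats, still apart. Class A, B and C shares overlapped between the groups with Dnajc15 included (means 20.8%, 22.9% and 56.3% in the sham group and 23.4%, 23.0% and 53.6% in the MI/RI group). When it was left out, class A was at 23.1% and 27.7% and class C at 51.4% and 45.1%, both without overlap.

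**Figure D3:**
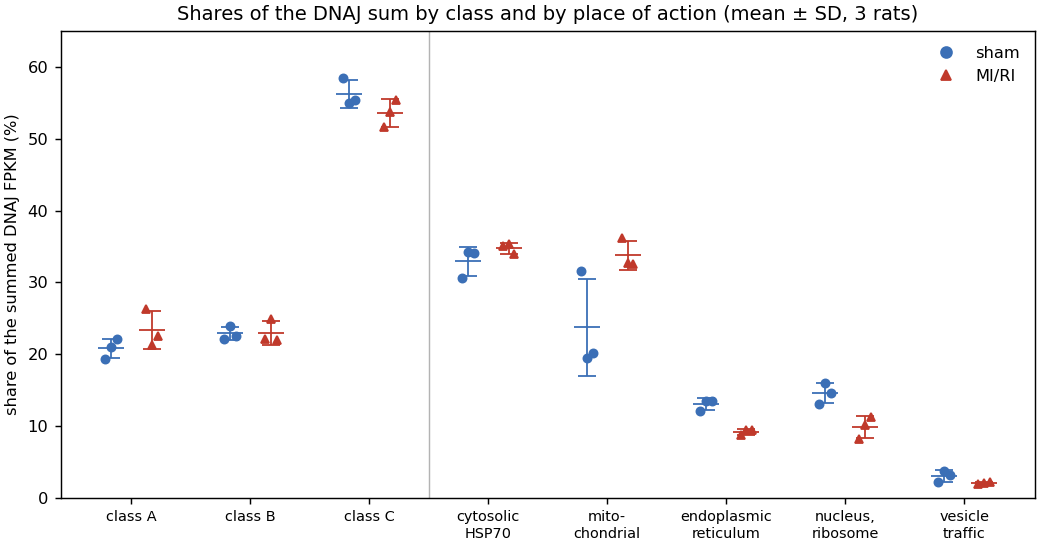
Share of the summed DNAJ FPKM, in percent, taken by each class (left) and by 5 role groups (right) in each rat, with sham rats as circles, MI/RI rats as triangles and bars for the mean ± SD of 3 rats. The mitochondrial share is higher in every MI/RI rat, the endoplasmic reticulum and the nuclear and ribosomal shares are lower in every MI/RI rat, and the cytosolic share overlaps.

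The HSP70 genes that these co-chaperones serve were also higher in part. Of 11 HSP70 genes listed, 9 were found by symbol and tested, and 4 rose, against 25.5% of all genes (median log2 fold change 0.72). Hspa1a and Hspa1b were not found under these symbols and are not analysed here. Hspa8, the constitutive cytosolic HSP70, was 125, 131 and 120 FPKM in sham rats 1 to 3 and 350, 318 and 259 FPKM in MI/RI rats 1 to 3 (1.29, SE 0.23, adjusted p = 0.0048, limma). Hspa9 was 20.1, 17 and 14.6 FPKM in the sham rats and 76.3, 44.1 and 36.0 FPKM in the MI/RI rats (1.53, SE 0.30, adjusted p = 0.0065). The groups were far apart in both, and Hspa1l was the other HSP70 called besides these and Hspa5 (2.21, adjusted p = 0.0086). Hspa1l had a sham mean of 0.221 FPKM and an MI/RI mean of 1.43 FPKM. Its sham mean lay under the filter of 0.5 FPKM, so it was tested through its MI/RI values and could enter only if it was higher. On the non-mitochondrial scale 3 HSP70 genes were higher (Hspa1l, Hspa5 and Hspa9) and 2 lower, and after median centring 4 and 2. After quantile normalization 1 was higher (Hspa1l) and 1 lower, Hspa12b (−1.01, adjusted p = 0.024). Hspa8 was not called on the non-mitochondrial scale (0.51, adjusted p = 0.13) or after quantile normalization (0.29, adjusted p = 0.36). Hspa5 and Hspa9 missed the threshold after quantile normalization (adjusted p = 0.091 and 0.054). The shares of all genes on these scales stand above. The endothelial Hspa12b gave −0.60 (adjusted p = 0.14) and Hspa12a −0.72 (adjusted p = 0.13).

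Set against the HSP70 sum, of which Hspa8 is the largest part, the DNAJ sum was lower in the MI/RI rats. The ratio of the DNAJ sum to the sum of the 9 HSP70 genes was 1.02, 0.919 and 0.869 in sham rats 1 to 3 and 0.812, 0.690 and 0.777 in MI/RI rats 1 to 3. The groups did not overlap, by a small margin. For the 7 listed endoplasmic reticulum J proteins alone the ratio was 0.123, 0.124 and 0.118 in the sham rats and 0.0705, 0.0653 and 0.0729 in the MI/RI rats, far apart. The ratio of Dnaja1 to Hspa8 was 0.0888, 0.105 and 0.104 in the sham rats and 0.0543, 0.0518 and 0.0619 in the MI/RI rats. Some other ratios overlapped or went the other way. For the mitochondrial J proteins the mean ratio to the HSP70 sum was 0.225 ± 0.083 in sham and 0.257 ± 0.034 in MI/RI rats (SD, n = 3 each), and for class A it was 0.194 ± 0.0027 and 0.179 ± 0.033, both with overlap. The ratio of Dnaja4 to Hspa8 was 0.0267, 0.0307 and 0.0234 in the sham rats and 0.0880, 0.0348 and 0.0526 in the MI/RI rats, higher in each MI/RI rat.

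Nucleotide exchange factors complete the HSP70 cycle. On the deposited scale 10 of 11 tested of 13 listed rose, against 25.5% of all genes (median log2 fold change 1.11, range −0.10 to 2.32). On the non-mitochondrial scale 3 were called higher (Bag2, Bag3 and Grpel1), against 7.25% of all genes. Bag3, which hands damaged sarcomere proteins to autophagy together with Hspa8 and class B co-chaperones, was 30.0, 13.6 and 11.9 FPKM in sham rats 1 to 3 and 116, 76.3 and 68.5 FPKM in MI/RI rats 1 to 3 (2.32, SE 0.37, adjusted p = 0.0035, limma). Grpel1, the exchange factor of Hspa9, was 9.52, 6.45 and 6.08 FPKM in the sham rats and 52.0, 24.1 and 22.2 FPKM in the MI/RI rats (2.06, SE 0.34, adjusted p = 0.0040). The groups were far apart in both, with the rats numbered 1 the highest of each group. Bag2 rose by 1.64 (adjusted p = 0.0027) and Hspbp1 by 1.23 (adjusted p = 0.0053). Sil1 and Hyou1, the exchange factors of Hspa5, rose by 0.98 (adjusted p = 0.016) and 1.06 (adjusted p = 0.010). Neither was called on the non-mitochondrial scale (0.22, adjusted p = 0.56, and 0.29, adjusted p = 0.42). The call of Sil1 was also lost without sham rat 2 or 3 (highest adjusted p = 0.072).

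**Figure D4:**
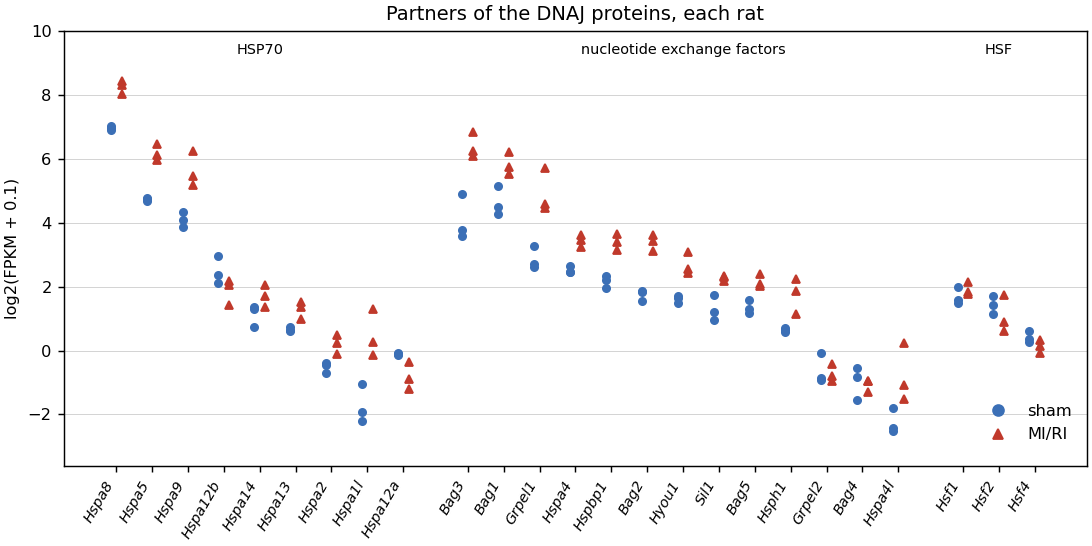
Expression of HSP70 genes, their nucleotide exchange factors and heat shock factors (HSF) in each rat as log2(FPKM + 0.1), with sham rats as circles and MI/RI rats as triangles. Hspa8, Hspa5, Hspa9, Bag3 and Grpel1 are apart between the groups.

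The J proteins Hscb, Sec63 and Gak, whose symbols do not begin with Dnaj, did not pass on the deposited scale. Hscb, which serves the assembly of iron-sulfur clusters in mitochondria, was 12.0, 12.1 and 11.6 FPKM in sham rats 1 to 3 and 7.79, 10.1 and 9.26 FPKM in MI/RI rats 1 to 3. Every MI/RI rat lay below every sham rat, unlike in the mitochondrial DNAJ genes above. The log2 fold change of Hscb was −0.40 (SE 0.21, adjusted p = 0.17, limma) on the deposited scale, and −1.18 (adjusted p = 0.0054) on the non-mitochondrial scale. Hscb was also called lower after median centring (−0.65, adjusted p = 0.045) and after quantile normalization (−1.03, adjusted p = 0.015). Sec63, of protein entry into the endoplasmic reticulum, gave 0.24 (adjusted p = 0.45, limma), and Gak, the ubiquitous auxilin, gave 0.35 (adjusted p = 0.32).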

How the data were processed

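Total RNA of rat myocardium was sequenced from stranded libraries of 3 sham and 3 I/R rats. The authors deposited 1 table of FPKM values (30452 Ensembl rows, 7092 without a symbol), and the submitters' processing notes name STAR and HTSeq with no version. The genome build is not given in the sources used here. Rows of 1 symbol were summed (none of the DNAJ genes shared one), which left 28293 genes. Genes with a mean of at least 0.5 FPKM over 6 rats (10942) were tested as log2(FPKM + 0.1) with limma 3.58.1 in R 4.3.3 (lmFit, eBayes with trend), two-sided, with Benjamini-Hochberg adjustment over all of them and a threshold of 0.05. The fit was tested on simulated data. Each numbered replicate is taken here as 1 rat, which the labels do not spell out, so p-values measure only the spread between these samples, which may be technical.

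The labels number the rats 1 to 3 in both groups, and deviations of same-numbered libraries from their group means correlated at 0.20, 0.12 and 0.12 (sham rat 3 with I/R rat 2 also at 0.12, other pairs below 0), so the replicate number was used as a block in an alternative fit. Other alternatives were pseudocounts of 1 and 0.01, no filter or a filter at 5 FPKM, TPM, the non-mitochondrial scale, median centring, quantile normalization, limma without the trend, the highest row of each symbol and leaving out each rat. Centring on cardiomyocyte markers was chosen after seeing the data. The members, role lists, markers and tests were chosen with earlier results of these data known. Members given rat by rat are the 12 with the largest log2 fold change among those called, the 6 with the lowest, the 6 most abundant and the 3 flattest with a mean of at least 5 FPKM, and of each partner list up to 4 genes with the largest change, with Hspa8, Hspa5 and Hspa9. Some others are added to complete their role group, chosen after their values were seen. Promoters are those of RefSeq GRCr8, matched by symbol. Protein sequences were not used here. Of the J proteins with other symbols, 1 is not reported here.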

Additional observations from a re-analysis of the deposited data

How the results depend on the processing

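For the 22 DNAJ genes picked by the naming rule, 314 values kept direction and side of the threshold, 30 lost the call and 20 changed sign under an alternative. The other DNAJ genes were not tallied. This gene tally leaves out centring on cardiomyocyte markers, under which every tested DNAJ gene lay below 0. Of the counts and medians 150 stayed close, 38 moved and 2 changed sign. The count of DNAJ genes called higher (20) was 13 of 43 tested without a filter (11.4% of all genes), 12 of 16 with the filter at 5 FPKM (50%), 5 on the non-mitochondrial scale, 12 after quantile normalization and 0 (with 24 lower) after centring on cardiomyocyte markers. It ranged from 8 to 18 with 1 rat left out, at 13 without sham rat 2, 8 without sham rat 3 and 12 without MI/RI rat 1. Class B calls (7) were 4 without a filter, 0 on the non-mitochondrial scale, 4 after median centring, 2 after quantile normalization and 2 to 5 with 1 rat left out. Class C calls (10) were 6 without a filter, 3 with the filter at 5 FPKM, 3 on the non-mitochondrial scale and 4 to 10 with 1 rat left out, where the count was 4 without sham rat 3 and 6 without MI/RI rat 1. HSP70 calls (4) were 1 after quantile normalization, and those of exchange factors (10) were 6 with the filter at 5 FPKM, which left 6 tested, 3 on the non-mitochondrial scale and 6 to 10 with 1 rat left out, at 6 without sham rat 3. The median log2 fold change of the DNAJ genes (0.78) was 1.05 with the filter at 5 FPKM, 0.004 on the non-mitochondrial scale, 0.31 after quantile normalization and −1.77 after centring on cardiomyocyte markers. On the non-mitochondrial scale and after quantile normalization it was 0.49 and 0.58 in class A, 0.006 and 0.33 in class B, and −0.29 and 0.27 in class C, where it was also 1.31 with the filter at 5 FPKM, 0.68 as TPM and 0.23 after median centring. Of all DNAJ genes tested, the non-mitochondrial scale turned 17 below 0, of which 1, Dnajb11 (−0.08), had been called. Of the 22 it turned Dnaja1 to −0.32, Dnajc2 to −0.59, Dnajc7 to −0.35, Dnajc8 to −0.32, Dnajc9 to −0.64, Dnajc17 to −0.54 and Dnajc18 to −0.52. Median centring turned Dnajc2 to −0.072, Dnajc9 to −0.12, Dnajc17 to −0.046 and Dnajc18 to −0.013, and quantile normalization turned Dnaja1 to −0.28, Dnajc2 to −0.22, Dnajc7 to −0.28, Dnajc8 to −0.24 and Dnajc9 to −0.26. Dnajb14 was 0.11 as TPM and −0.46 to 0.20 with 1 rat left out. Beyond the fewer genes tested or rats used, the cause was not tested. The replicate block gave 21 DNAJ genes called higher, 20 of them shared with the unblocked fit, and besides Dnajb12 (adjusted p = 0.030, limma) it changed no DNAJ call. FPKM values carry no depth, so precision at low values is not known.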
